A study of Arabidopsis thaliana with 72 samples.

Results

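GTR1 and GTR2 are the 2 glucosinolate transporter genes compared here, in cotyledons of Arabidopsis thaliana. GTR1 (NPF2.10, locus AT3G47960) lies on chromosome 3, and GTR2 (NPF2.11, locus AT5G62680) lies on chromosome 5, by the RefSeq annotation of assembly TAIR10.1. Each was measured by 1 probe set that the platform annotation assigns to that gene alone, so they are 2 of 16722 probe sets of 1 gene among 28583 in all. The pair was taken up because the genes were known to prefer opposite tissues in these data, so the difference between vasculature and mesophyll is given below as a description without a test. GTR3 (NPF2.9), the third known member of the group, was not analysed here.

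Glucosinolates are sulphur- and nitrogen-containing defence compounds of the Brassicales, which myrosinase enzymes break down to toxic products when tissue is damaged. GTR1 and GTR2 belong to the NRT1/PTR family (NPF), whose members carry nitrate, peptides, hormones and specialised metabolites. Both are proton-coupled importers of the plasma membrane. Loss of both genes keeps glucosinolates out of seeds and leaves them accumulating in the source leaves, and the pair also shapes how the compounds are distributed within a leaf and between root and shoot.

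Transcripts were measured on 72 arrays of the Affymetrix Arabidopsis Gene ST type in wild-type Col-0 seedlings grown on sucrose-containing medium, with no transgene, mutation or other treatment in any group. Vasculature isolated with enzymes and sonication, mesophyll isolated by the same treatment, and whole cotyledons (whole leaf in the labels) were each collected in long days of 16 h light and 8 h dark and in short days of 8 h light and 16 h dark. Each of these 6 groups has 12 arrays, 1 for each of 6 Zeitgeber times (ZT, hours after lights on) on day 9 and on day 10. Nothing in the labels tells whether both arrays of a time came from separate cultures, so the p-values cover the spread among these samples alone, and that spread may be technical. In such bulk samples, fewer cells of a type and less RNA per cell cannot be told apart.

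The deposited intensities had array medians of 3.29 to 3.77, and precision is limited by how many arrays there are. The array of long-day whole leaf at ZT0 of day 10 was dimmer than the rest, its mean being 54.2 where every other array had at least 67.8. Leaving it out changed no call for either transporter. The marker lists that follow were chosen with earlier results of these data known, so their counts are no independent check of the tissues. The measured mesophyll markers, 5 of 8 listed, were all lower in vasculature than in mesophyll in both day lengths (called at a limma p under 0.05 after Benjamini-Hochberg adjustment with a log2 difference of 1 or more), where 12.8% and 12.6% of all probe sets were lower under long and short days. GLYK, a photorespiratory kinase, differed by -3.88 in long days on the log2 scale, and SBPASE and PRK of the Calvin cycle by -2.94 and -2.54. Of 13 vascular markers 4 were measured, and 3 in long days and 4 in short days were higher in vasculature, as were 12.7% and 12.4% of all probe sets. OPS, called in short days alone, was dim in mesophyll and whole leaf, with mean log2 levels of 1.65 to 1.72. It can have passed the filter on low intensities through vasculature, so its higher level there was partly fixed in advance. LHW, a factor of vascular cell division, was 3.43 higher in long days, CLE41, a peptide made in phloem, 3.04 higher, and SWEET11, a sucrose exporter of phloem parenchyma, 2.39 higher. The other vascular markers, SUC2 and APL among them, were not analysed here. Of 9 epidermis and guard cell markers FAMA and BLUS1 were measured, and both were lower in the isolated tissues than in whole leaf in both day lengths. Both were dim in the isolated tissues, with mean log2 levels of 1.6 to 1.8 for BLUS1 and 1.91 to 2.27 for FAMA. A gene so dim there can pass the filter on low intensities through whole leaf, so its lower level elsewhere was partly fixed in advance. Of all probe sets 11% and 11.3% were lower in vasculature than in whole leaf, and 5.46% and 5.94% in mesophyll.

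GTR1 signal was highest in mesophyll. It averaged 30.4 ± 5.54 intensity units in long-day vasculature and 184 ± 39.5 in long-day mesophyll (SD, n = 12 each). In short days it averaged 39.7 ± 10.5 in vasculature and 194 ± 49.6 in mesophyll (SD, n = 12 each). The 12 long-day vasculature arrays ran from 24.8 through a median of 29.4 to 40.5, against 145, 173 and 289 in long-day mesophyll. Those of short days ran from 19.4 through 39.4 to 62.4 in vasculature, against 144, 186 and 325 in mesophyll. No vasculature array reached the lowest mesophyll array in either day length.

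GTR2 signal was highest in vasculature. It averaged 935 ± 146 units in long-day vasculature and 8.59 ± 2.91 in long-day mesophyll (SD, n = 12 each). In short days the means were 878 ± 176 in vasculature and 14 ± 6.1 in mesophyll (SD, n = 12 each). The long-day vasculature arrays ran from 763 through 911 to 1280, against 4.92, 7.92 and 13.1 in long-day mesophyll. Short-day vasculature ran from 598 through 842 to 1170, against 5.16, 13.1 and 30.3 in mesophyll. The mesophyll values were low but above the filter intensity of 2.77 on every array, and no vasculature array overlapped them.

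**Figure D1:**
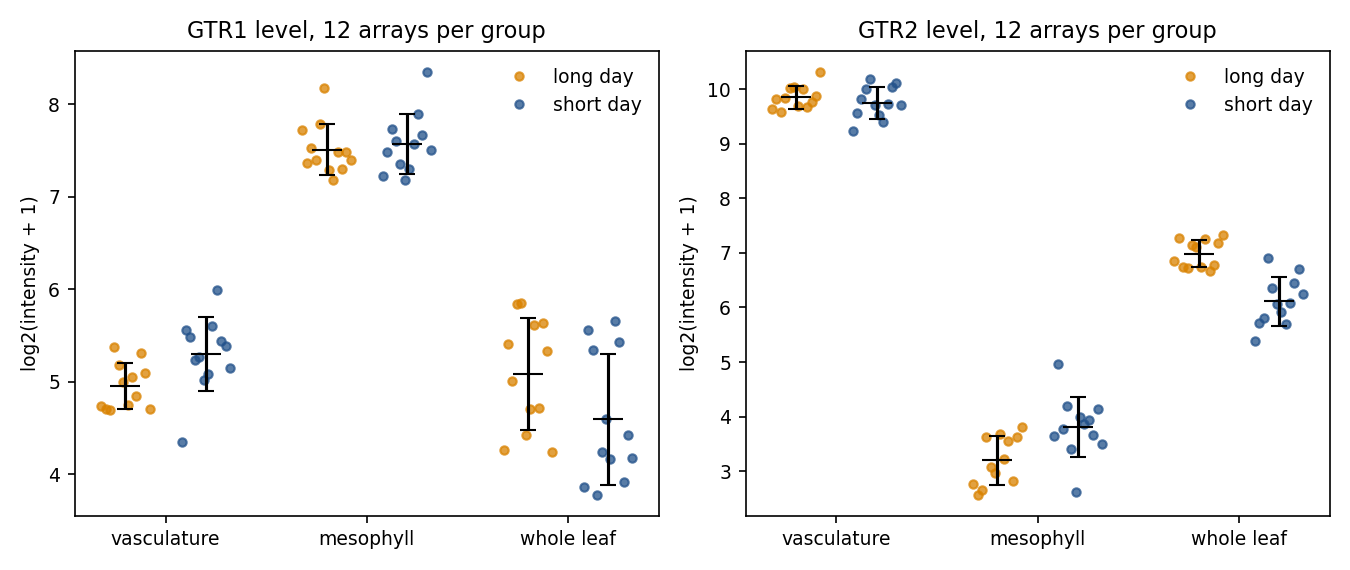
Levels of GTR1 (left) and GTR2 (right) as log2(intensity + 1) in vasculature, mesophyll and whole leaf, with 1 point per array, long days in orange and short days in blue, and black bars for the mean and SD of 12 arrays. GTR1 lies highest in mesophyll and GTR2 in vasculature, with long-day group means of 7.51 and 9.86; the vertical scales of the panels differ.

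On the scale of log2(intensity + 1), vasculature minus mesophyll was -2.56 ± 0.09 and -2.27 ± 0.11 (SE) for GTR1 in long and short days. For GTR2 the same differences were 6.66 ± 0.15 and 5.94 ± 0.13. The sign was the same at 6 of 6 times in each of these 4 differences. On linear means GTR2 was 109-fold and 62.7-fold brighter in vasculature than in mesophyll under long and short days. Over all 21827 probe sets above the filter, 25.5% and 25.1% were called between the same tissues under long and short days.

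The signal of each gene in its low tissue was set beside that of the tissue markers. The GTR1 mean in vasculature was 16.5% and 20.4% of its mesophyll mean under long and short days. For the 5 mesophyll markers the same share ran from 7.16% to 32.1% under long days and from 6.8% to 26.5% under short days, so the GTR1 share lay within their range. The GTR2 mean in mesophyll was 0.919% and 1.59% of its vasculature mean under long and short days. For the vascular markers LHW, CLE41 and SWEET11 the same share ran from 7.3% to 19% under long days and from 7.01% to 13.9% under short days, so the GTR2 share lay below all 3. OPS was left out because its mesophyll means, 2.31 and 2.21 units, were below the filter intensity. Whether mesophyll RNA in the vascular preparations contributed to the GTR1 values there was not tested.

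The whole-leaf mean of GTR2 lay between those of the isolated tissues in both day lengths, and that of GTR1 in long days alone. GTR2 averaged 127 ± 22.1 units in long-day whole leaf, with a lowest, median and highest array of 101, 126 and 159, and 71.2 ± 22.9 in short-day whole leaf, with 40.6, 66.6 and 119 (SD, n = 12 each). GTR1 averaged 35.7 ± 14.5 in long-day whole leaf, with 17.9, 35.2 and 56.6, and 26.1 ± 14 in short-day whole leaf, with 12.8, 19.1 and 49.7 (SD, n = 12 each). The short-day whole-leaf mean of GTR1 was below those of both tissues isolated from such leaves.

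The order of the 6 groups therefore differed between the genes. For GTR1 the mean log2 levels ran from 7.57 in short-day and 7.51 in long-day mesophyll, across a gap of 2.21 without overlap, to 5.3 in short-day vasculature, 5.08 in long-day whole leaf, 4.95 in long-day vasculature and 4.6 in short-day whole leaf. Neighbours among these lower 4 groups overlapped. For GTR2 long-day and short-day vasculature (9.86 and 9.75) overlapped, as did long-day and short-day whole leaf (6.98 and 6.11) and short-day and long-day mesophyll (3.81 and 3.2). Gaps of 2.77 and 2.3 without overlap separated these 3 tissue levels.

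Mesophyll against whole leaf was tested with limma over all probe sets above the filter, and both transporters were called in both day lengths. GTR1 was higher in mesophyll by 2.42 ± 0.1 and 2.98 ± 0.1 under long and short days (log2 scale, SE, limma adjusted p 1.3e-12 and 3.8e-13). GTR2 differed by -3.78 ± 0.15 and -2.3 ± 0.15 (limma adjusted p 5.7e-13 and 1.9e-09). The sign was the same at 6 of 6 times in each, and the groups did not overlap. In these comparisons 11.2% and 12.2% of probe sets were called under long and short days. These tests use the mesophyll arrays behind the known opposite preference and are not independent of it.

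Genes of early wound response moved in the same direction as GTR1 between mesophyll and whole leaf. Their list was chosen with earlier results of these data known, so the counts describe these samples and are no independent test. Of 9 listed genes 7 were measured, and all 7 were higher in mesophyll than in whole leaf in both day lengths, with medians of 6.79 and 7.23 against -0.08 and -0.09 over all probe sets, of which 5.77% and 6.24% were called higher. Their summed intensity was 3380 to 5280 in long-day mesophyll and 17.7 to 39.9 in long-day whole leaf, and 3930 to 5790 in short-day mesophyll and 15.7 to 20.9 in short-day whole leaf. In vasculature the sum was 78.9 to 346 under long days and 199 to 658 under short days, below mesophyll. ABR1, an ethylene response factor, was 7.16 higher in long-day mesophyll than in whole leaf, and CML38, a calcium sensor, 6.79 higher. All 7 were dim in whole leaf, with mean log2 levels from 1.63 for PUB22 in short days to 2.54 for STZ in long days. Genes so dim there can pass the filter through mesophyll, so a higher level in mesophyll was partly fixed in advance. The sizes are distances from a level near the filter. None of the 5 mesophyll markers was called between mesophyll and whole leaf, with medians of 0.17 and 0 under long and short days. The part of the wound response in the GTR1 difference was not tested.

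Vasculature against whole leaf was tested in the same way, on the vasculature arrays that also lie behind the opposite preference, so it is not independent of it. GTR2 was higher in vasculature by 2.87 ± 0.05 and 3.64 ± 0.07 under long and short days (limma adjusted p 5.4e-17 and 2e-17), at 6 of 6 times in each. GTR1 differed by -0.13 ± 0.08 in long days (limma adjusted p 0.16) and by 0.7 ± 0.08 in short days (limma adjusted p 7.1e-07), and neither difference reached the minimum of 1. The calls in these comparisons covered 20.1% and 20.9% of probe sets.

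Whole-leaf means of both transporters were higher in long days than in short days, by less than the minimum difference of 1. Long minus short day in whole leaf was 0.49 ± 0.08 for GTR1 and 0.87 ± 0.07 for GTR2 (limma adjusted p 0.00017 and 1.9e-07). The GTR2 difference was above 0 at 6 of 6 times and the GTR1 difference at 3 of 6. In vasculature the difference was -0.34 ± 0.08 for GTR1 (limma adjusted p 0.0052) and 0.1 ± 0.05 for GTR2 (limma adjusted p 0.14). In mesophyll it was -0.06 ± 0.11 for GTR1 (limma adjusted p 0.76) and -0.61 ± 0.2 for GTR2 (limma adjusted p 0.041). Calls covered 1.86% of probe sets in whole leaf, 1.48% in vasculature and 1.22% in mesophyll, and neither transporter was among them.

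Time by time, the whole-leaf difference was called at different hours for the 2 genes. GTR1 was called higher in long days at ZT12 and ZT16. At ZT12 its whole-leaf intensity was 56.2 and 48.4 in long days, against 12.8 and 14.2 in short days (difference 1.88 ± 0.19, limma adjusted p 1e-05). At ZT16 it was 56.6 and 39.3 in long days, against 17.9 and 20.4 in short days (difference 1.26 ± 0.19, limma adjusted p 0.0002). The long-day and short-day arrays did not overlap at either time, and both hours fall in the dark of short days, ZT16 being the end of the long-day light period.

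GTR2 was called higher in long days at ZT0, ZT4 and ZT20. At ZT0 it read 115 and 106 in long-day whole leaf, against 40.6 and 59 in short days (difference 1.16 ± 0.17, limma adjusted p 0.00062). At ZT4 it read 153 and 151 in long days, against 51.8 and 50.7 in short days (difference 1.55 ± 0.17, limma adjusted p 6.1e-05). At ZT20 it read 136 and 159 in long days, against 66.1 and 75 in short days (difference 1.05 ± 0.17, limma adjusted p 0.0017). The arrays of the 2 day lengths did not overlap at these times.

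The remaining whole-leaf differences of GTR2 were 0.76 at ZT8, 0.07 at ZT12 and 0.64 at ZT16 (limma adjusted p 0.0082, 0.85 and 0.013). They were under the minimum of 1, so ZT8 and ZT16 were left uncalled by size alone. For GTR1 they were 0.47 at ZT0, -0.1 at ZT4, -0.53 at ZT8 and -0.05 at ZT20. Background calls in whole leaf were 3.61% at ZT0, 2.9% at ZT4, 4.82% at ZT8, 6.37% at ZT12, 8.75% at ZT16 and 2.69% at ZT20. No single-time difference was called for either transporter in the isolated tissues. The background over ZT0 to ZT20 was 1.72%, 1.34%, 2.29%, 4.54%, 6.08% and 1.35% in vasculature and 0.825%, 1.02%, 2.96%, 6.08%, 6.6% and 0.646% in mesophyll. The nearest in vasculature was GTR1 at ZT8, with 24.8 and 27.8 in long days, against 43.6 and 62.4 in short days (difference -0.96 ± 0.2, limma adjusted p 0.011). In mesophyll the largest was GTR2 at ZT4, -1.52 ± 0.48 with limma adjusted p 0.14. With a pseudocount of 16 in place of 1 the ZT16 difference of GTR1 was 0.85, and those of GTR2 at ZT0 and ZT20 were 0.96 and 0.92, all under the minimum.

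**Figure D2:**
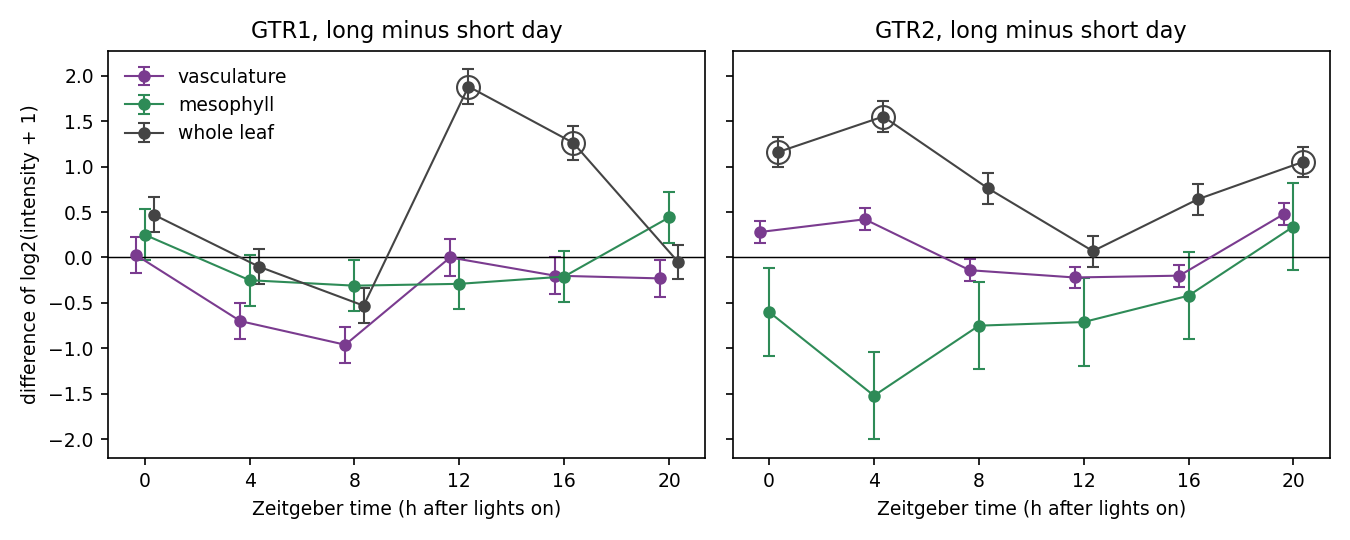
Long minus short day difference of log2(intensity + 1) at each Zeitgeber time (h after lights on) for GTR1 (left) and GTR2 (right) in vasculature, mesophyll and whole leaf, with bars for the SE and larger open circles in the tissue colour around the called differences. The circled points are whole-leaf ones, at ZT12 and ZT16 for GTR1 (1.88 and 1.26) and at ZT0, ZT4 and ZT20 for GTR2 (1.16, 1.55 and 1.05).

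The whole-leaf time course of GTR1 differed in shape between day lengths. In long days the arrays of day 9 and day 10 read 18.2 and 25.2 at ZT0, 41.5 and 47.8 at ZT4, 31.1 and 25.3 at ZT8, 56.2 and 48.4 at ZT12, 56.6 and 39.3 at ZT16, and 20.5 and 17.9 at ZT20. They were high at ZT4, low at ZT8 and high again at ZT12 and ZT16. In short days they read 13.6 and 16.9 at ZT0, 46 and 49.7 at ZT4, 39.6 and 42.2 at ZT8, 12.8 and 14.2 at ZT12, 17.9 and 20.4 at ZT16, and 23.2 and 16.9 at ZT20. Here the only high times were ZT4 and ZT8, both in the light or at its end.

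The highest over the lowest time mean of GTR1 in whole leaf was 2.73-fold in long days, ZT12 over ZT20, and 3.56-fold in short days, ZT4 over ZT12. An F test of the 6 times as a factor called both (limma adjusted p 0.0035 and 1.6e-05, threshold 0.03), where 19.4% of long-day and 40.9% of short-day probe sets were called. A 24-h cosine, which allows 1 maximum a day, did not call them, with amplitudes of 0.53 (limma adjusted p 0.16) and 0.67 (limma adjusted p 0.056). The difference between the long-day and short-day courses was called with the 6 times as a factor (limma adjusted p 7.5e-05, 21.8% of probe sets called) and not with the cosine (limma adjusted p 0.18). Within vasculature or mesophyll, GTR1 passed neither form of test in either day length, with a smallest limma adjusted p of 0.062 for short-day vasculature.

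GTR2 was rhythmic by the cosine fit in short-day vasculature and short-day whole leaf. In short-day vasculature the arrays of day 9 and day 10 read 598 and 739 at ZT0, 761 and 677 at ZT4, 902 and 849 at ZT8, 1020 and 1050 at ZT12, 1170 and 1100 at ZT16, and 835 and 835 at ZT20. The highest values stood at ZT12 and ZT16 in the dark. The cosine fit had an amplitude of 0.38 and a peak at ZT13.8 (limma adjusted p 0.0011), where 14.5% of probe sets were called. In short-day whole leaf GTR2 had an amplitude of 0.54 and a peak at ZT14.2 (limma adjusted p 0.0014), in a group where 34.7% were called. In short-day mesophyll it was not called (amplitude 0.42, limma adjusted p 0.31, 12% called). Its whole-leaf arrays read 119 and 86.5 at ZT12 and 80.6 and 103 at ZT16, against 40.6 and 59 at ZT0.

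In long days the cosine called GTR2 in no tissue, with amplitudes of 0.17 in vasculature (limma adjusted p 0.4), 0.22 in mesophyll (0.65) and 0.16 in whole leaf (0.49). Background calls in long days were 3.16% in vasculature, 13.3% in mesophyll and 9.52% in whole leaf. The 6 times as a factor did call long-day whole leaf (limma adjusted p 0.017), where the ZT4 and ZT8 means were 152 and 104. The rhythm differed between long and short days in vasculature, with a distance of 0.37 between the fitted cosine and sine pairs (limma adjusted p 0.04, 5.24% of probe sets called). In whole leaf the distance was 0.59 (limma adjusted p 0.024, 6.62% called). Between vasculature and mesophyll of the same day length no rhythm difference was called for either gene, with limma adjusted p values of 0.12 to 0.97, where 7.14% of long-day and 6.13% of short-day probe sets were called. With the arrays of 1 day alone none of these GTR2 rhythm calls was made. Such a fit has 1 array per group and time and few residual degrees of freedom, so the lack of calls says little about the rhythms.

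**Figure D3:**
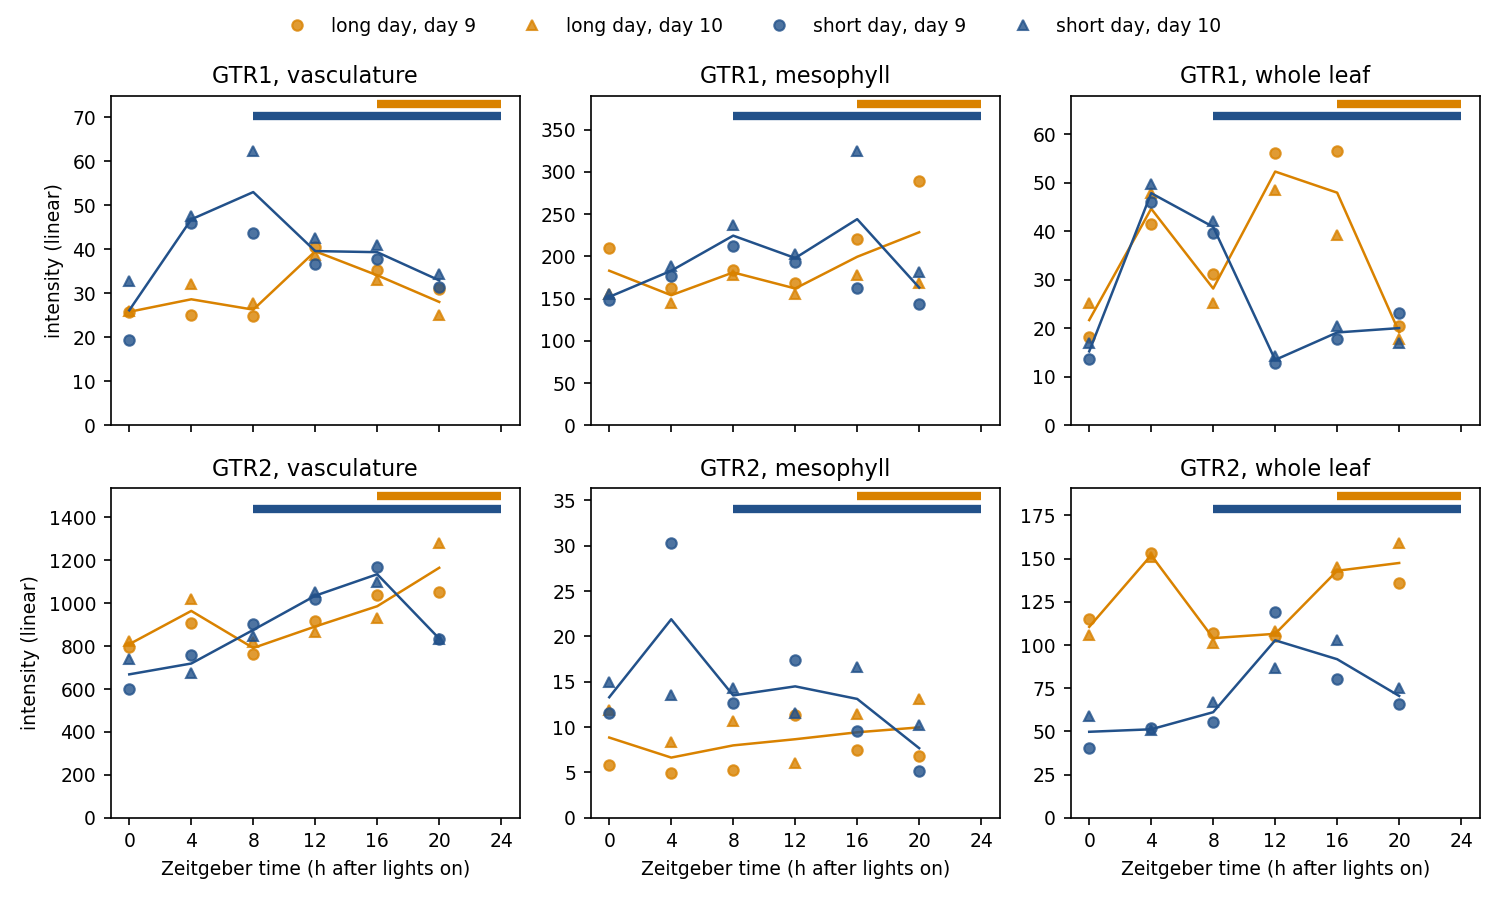
Deposited intensity on a linear scale against Zeitgeber time (h after lights on) for GTR1 (top) and GTR2 (bottom) in vasculature, mesophyll and whole leaf. Orange marks long days and blue short days, circles day 9 and triangles day 10, lines join the means of both days, and the horizontal bars at the top of each panel mark the dark hours. Whole-leaf GTR1 has a second high at ZT12 in long days (mean 52.3) where short days are lowest (13.5), and GTR2 in short-day vasculature is highest at ZT16; the vertical scales differ between panels.

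The time course of GTR1 in the isolated tissues was also set against whole leaf, a comparison added after the time courses had been seen. With the 6 times as a factor, the GTR1 course differed from whole leaf in long-day vasculature (limma adjusted p 0.043), long-day mesophyll (0.012), short-day vasculature (0.012) and short-day mesophyll (0.024). Background calls were 10.5%, 4.76%, 22.7% and 2.54% in that order. In short days vasculature minus whole leaf was -0.03 at ZT4 and 1.49 at ZT12, so the tissues met when whole leaf was high and parted when it was low. In long days mesophyll minus whole leaf was 1.61 at ZT12 and 3.46 at ZT20. GTR2 showed no such difference, with limma adjusted p values of 0.31 to 0.85. The GTR1 calls in long-day vasculature and in short-day mesophyll were not made with a replicate block (limma adjusted p 0.059 and 0.073), nor were those of both mesophyll groups with a pseudocount of 16 (0.051 and 0.15). Quantile normalization left long-day vasculature uncalled as well (0.13), and a cosine in place of the 6 times called none of the 4.

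Interaction contrasts tested whether the tissue differences themselves depended on day length. For GTR2 the vasculature minus mesophyll difference was larger in long days by 0.71 ± 0.21 (limma adjusted p 0.018, 15.4% of probe sets called), by 0.37 with a pseudocount of 16 and, after quantile normalization, by 0.57 with limma adjusted p 0.056. For GTR1 the same interaction was -0.28 ± 0.14 (limma adjusted p 0.2). Mesophyll minus whole leaf differed between long and short days by -0.55 ± 0.14 for GTR1 (limma adjusted p 0.009) and by -1.48 ± 0.22 for GTR2 (limma adjusted p 2.4e-05), with 12.8% of probe sets called. Vasculature minus whole leaf differed by -0.83 ± 0.12 for GTR1 (limma adjusted p 5e-06) and by -0.77 ± 0.09 for GTR2 (limma adjusted p 2e-07), with 26.8% called. Of the 7 wound response genes 5 were lower in each of these interactions against whole leaf, with medians of -0.65 for mesophyll and -0.79 for vasculature, where 6.9% and 13.7% of all probe sets were lower. Their part in the GTR1 and GTR2 values was not tested. Both contrasts against whole leaf share the whole-leaf arrays, in which the long-day means of both genes were higher.

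Between the 2 days of a group neither transporter was called, and background calls were at most 0.669%. The largest differences of day 10 minus day 9 were 0.51 ± 0.21 for GTR2 in long-day mesophyll (limma adjusted p 0.45) and -0.31 ± 0.1 for GTR1 in the same group (limma adjusted p 0.38). GTR1 differed by 0.29 in short-day mesophyll and by 0.29 in short-day vasculature. These 3 GTR1 differences had 1 sign at 6 of 6 times.

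The rest of the NPF family was set beside GTR1 and GTR2, which were chosen for their difference between vasculature and mesophyll. Of 53 NPF genes 37 had a probe set of their own, and 28 of them, through 29 probe sets, were above the filter. Under long days 8 of the 29 probe sets were higher and 6 lower in vasculature than in mesophyll, and under short days 7 and 5. Without GTR1 and GTR2 these counts were 7 and 5 of 27 under long days and 6 and 4 under short days. The family median was -0.06 in both day lengths, against 0 over all probe sets, of which 12.7% were higher and 12.8% lower under long days, and 12.4% and 12.6% under short days. Beside GTR2, the highest were NPF4.3 with differences of 5.98 and 4.58 under long and short days, NPF5.8 with 4.53 and 5.26, and NPF5.7 with 4.4 and 4.2. The 2 probe sets of NPF3.1, a gibberellin and nitrite transporter named after its values were seen, had the same sign but unlike sizes, with 2.49 and 3.71 for the first and 0.41 and 0.62 for the second. The second was dim, with mean log2 levels of 2.07 to 2.84 over the groups, against 4.28 to 7.99 for the first. GTR1 stood with the members lower in vasculature. Day length called only NPF6.4 (1.38) and NPF5.8 (1.17) of the family in whole leaf, and NPF6.4 (1.22) and the first NPF3.1 probe set (1.03) in mesophyll, where 1.86% of all probe sets were called in whole leaf and 1.22% in mesophyll, genes named here after their values were seen.

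**Figure D4:**
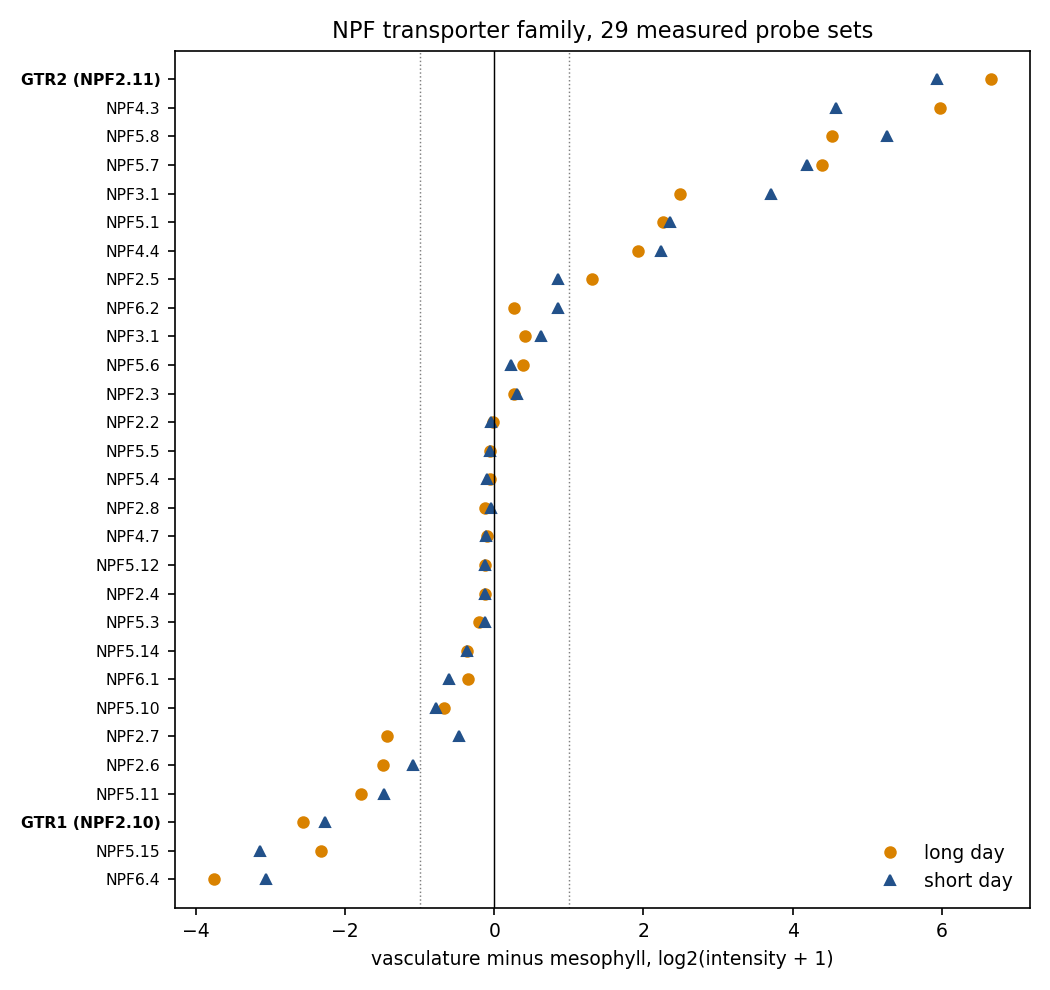
Vasculature minus mesophyll difference of log2(intensity + 1) for the 29 measured probe sets of the NPF transporter family, with long days as orange circles and short days as blue triangles, and dotted lines at the minimum difference of 1 on either side of 0. GTR2 stands at the top (6.66 and 5.94) and GTR1 near the bottom (-2.56 and -2.27).

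Few genes of glucosinolate synthesis and breakdown had a probe set of their own above the filter: 2 of 24 listed for aliphatic synthesis, 1 of 15 for indole and shared steps, 3 of 14 regulators and 1 of 15 for breakdown. GSTU20, a glutathione transferase of aliphatic glucosinolate synthesis, was higher in vasculature than in mesophyll by 3.26 and 3.74 under long and short days. UGT74B1, a glucosyltransferase shared by the pathways, was higher by 1.52 and 1.82. UGT74C1, a glucosyltransferase of aliphatic glucosinolates, was higher by 1.2 under long days and differed by 0.77 under short days, below the minimum. Under long and short days 12.7% and 12.4% of all probe sets were called higher in vasculature. UGT74B1 was dim in mesophyll, with mean log2 levels of 2.16 and 1.93 under long and short days. These 3 synthesis genes had the sign of GTR2 and not that of GTR1, but they are too few to describe the pathway. The transcription factors MYC3 (0.25 and 0.66) and MYC4 (0.36 and 0.34), activators of the synthesis genes, and SDI2 (-0.12 and 0.05), a repressor under sulphur shortage, were not called. In the isolated tissues SDI2 was dim, with mean log2 levels of 1.76 to 2.06, as was MYC4 with 2.08 to 2.55. The lack of a call says little for these dim genes. The listed exporters were not analysed here.

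PYK10, which is stored in ER bodies and can cleave indole glucosinolates, differed from whole leaf in both isolated tissues. Its differences were -5.59 and -7.3 for vasculature and -5.8 and -6.02 for mesophyll under long and short days, all called. Background calls lower than whole leaf were 11% and 11.3% for vasculature and 5.46% and 5.94% for mesophyll. Between vasculature and mesophyll PYK10 was called in short days (-1.28), where 12.6% of all probe sets were called lower. In long days that difference was 0.21 and rested on 1 vasculature array with a level of 8.06, without which it was -0.29, and vasculature minus whole leaf was -6.09, values chosen after seeing the data and not tested. In whole leaf GSTU20 was 1.57 higher in long days than in short days, the sign of the GTR2 difference of 0.87, whereas PYK10 differed by -1.58. GSTU20 and PYK10 were called there, as were 1.86% of all probe sets.

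The probe sets whose pattern was most like each transporter were found by Pearson's r over the 36 means of group and time, among 12139 other probe sets of 1 gene. For GTR1 they were CDI (AT1G64980, r = 0.964), AT1G72920 (0.959) and AT4G21570 (0.957), each highest in mesophyll. For GTR2 they were AT4G00780 (0.986), AT3G58720 (0.986) and AT1G64370 (0.978), each highest in vasculature. Each of the 36 means is of 2 arrays, and they fall at few tissue levels. Between GTR1 and GTR2 r was -0.74 over the 36 means. That value reflects the opposite tissue preference for which the pair was chosen, so it is no test of it. Within the groups r ran from -0.45 in short-day whole leaf to 0.38 in short-day mesophyll over 12 arrays each.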

How the data were processed

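The authors deposited 1 linear intensity per probe set and array, computed with GCRMA according to the submitters' processing notes. No version or annotation is given in the sources used here. This method corrects background by probe sequence and as a rule normalizes between arrays. The deposited arrays still differed in their medians, so how far shifts shared by most genes were removed is not known, and the values of dim probe sets depend on the background model. The values ran from 0.835 to 18000.

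Levels were analysed as log2(intensity + 1), where the added 1 shrinks the differences of dim genes. Probe sets with an intensity above the 40th percentile (2.77) in 6 or more arrays were retained, 21827 of 28583. Genes were named through the platform annotation and the RefSeq genes of TAIR10.1, in which 16574 of the 16722 one-gene probe sets were found. No probe set with several genes was used.

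Groups, times and days came from the labels. For each comparison limma 3.58.1 (R 4.3.3, with the package data.table at version 1.17.8) was fitted to the arrays involved, with 1 mean per group and time, and the contrast averaged over the times. Calls required p under 0.05 after Benjamini-Hochberg adjustment across retained probe sets, and differences of 1 or more, except that interactions required the adjusted p alone. Rhythms were tested by moderated F tests of a 24-h cosine and sine, or of the 6 times as a factor, with adjusted p thresholds of 0.03 within groups and 0.05 between them. Contrasts were tested two-sided, F tests have no direction, and the tests were tried on simulated data. Figures were drawn with matplotlib 3.10.9.

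The members and gene lists were chosen with earlier results of these data known. Named genes are GTR1, GTR2, up to 4 members of each list called between vasculature and mesophyll in both day lengths, all measured members of glucosinolate lists, and the 3 most alike probe sets. FAMA, BLUS1, OPS, NPF3.1 and NPF6.4 fall outside this and were named after their values were seen. Same-time arrays of different groups share a replicate number; the correlation of their day-to-day differences ran from -0.22 to 0.15, so the numbers were not taken to pair them.

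Alternatives were other pseudocounts, filters and normalizations, all arrays in 1 fit, an array left out, single days, a replicate block and other rhythm tests.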

Additional observations from a re-analysis of the deposited data

Results flagged for a closer look

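Several differences between tissues depended on day length by a test of the difference itself. On the log2 scale, long minus short day, the vasculature minus mesophyll difference of GTR2 changed by 0.71 (limma adjusted p 0.018), and the mesophyll minus whole leaf differences changed by -0.55 for GTR1 (0.009) and -1.48 for GTR2 (2.4e-05). The vasculature minus whole leaf differences changed by -0.83 for GTR1 (5e-06) and -0.77 for GTR2 (2e-07). Such calls were common, as 15.4%, 12.8% and 26.8% of all probe sets were called in these contrasts, in the order given. The value of 0.71 for GTR2 was not called after quantile normalization. Long minus short day for GTR2 was -0.61 in mesophyll, where it is dim, and 0.1 in vasculature.

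Time courses also differed between groups by an interaction test. The fitted 24-h rhythm of GTR2 differed between long and short days by 0.37 in vasculature (limma adjusted p 0.04) and by 0.59 in whole leaf (0.024). Of all probe sets 5.24% and 6.62% were called in these comparisons. The whole-leaf course of GTR1 differed between long and short days with the 6 times as a factor (limma adjusted p 7.5e-05, 21.8% of all probe sets called), at a cosine distance of 0.81. Against whole leaf, the GTR1 course differed in long-day vasculature (0.043), long-day mesophyll (0.012), short-day vasculature (0.012) and short-day mesophyll (0.024). That comparison was added after the courses had been seen and is no independent support for them. Of all probe sets 10.5%, 4.76%, 22.7% and 2.54% were called, in that order. The largest differences at a single time were 0.52, 3.46, 1.49 and 3.78. They include the mean tissue differences of -0.13, 2.42, 0.7 and 2.98.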

How the results depend on the processing

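Of 794 values recomputed under 13 settings, 754 kept their direction and their side of the threshold, or moved by less than 1 SD where there was no test. Amplitudes and cosine distances have no sign to change, and values that were uncalled in the main run count as kept while they stay uncalled. The count is therefore no measure of how firm the calls are. A pseudocount of 16 moved vasculature minus mesophyll to -2.10 in long days and -1.91 in short days for GTR1 and to 5.27 and 4.90 for GTR2, and called a rhythm difference of GTR2 between short-day vasculature and mesophyll (0.48, limma adjusted p 0.026). It also left the GTR1 time course against whole leaf uncalled in long-day (0.46) and short-day mesophyll (0.50). The distances given for time courses are those of the fitted cosine. Quantile normalization took the vasculature minus mesophyll interaction of GTR2 to 0.57 and left the GTR1 course of long-day vasculature uncalled (0.34), as did no pseudocount (0.38). With the replicate block that course (0.37, limma adjusted p 0.059) and the one of short-day mesophyll (0.72, limma adjusted p 0.073) were not called, and the block changed no other call. A cosine in place of the 6 times left all 4 courses uncalled (0.64, 0.37, 0.72 and 0.55 in long-day mesophyll, long-day vasculature, short-day mesophyll and short-day vasculature).

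The 6 times as a factor added calls for the rhythms of GTR1 in long-day (0.53) and short-day whole leaf (0.67) and of GTR2 in long-day whole leaf (0.16), and for the day length difference of the GTR1 rhythm in whole leaf (0.81). Single days leave 1 array per group and time, by construction, and a fit with few residual degrees of freedom. With day 9 alone the mesophyll day length difference of GTR1 was 0.24 (limma adjusted p 0.6), of opposite sign. The interactions that were no longer called were 0.90 with day 9 alone and 0.53 with day 10 alone for vasculature minus mesophyll of GTR2, -0.33 and -0.77 for mesophyll minus whole leaf of GTR1, and, for vasculature minus whole leaf, -0.77 and -0.90 for GTR1 and -0.86 and -0.68 for GTR2. The GTR2 rhythms were 0.40 and 0.35 in short-day vasculature and 0.62 and 0.47 in short-day whole leaf, and their day length differences 0.36 and 0.40 in vasculature and 0.72 and 0.46 in whole leaf, with none called.

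Counts over all probe sets moved more. A pseudocount of 16 gave 1180 to 3168 calls in the 6 tissue comparisons, against 2452 to 5570, and 65 to 132 in the 3 day length comparisons, against 266 to 407; it also gave 405 rhythms in long-day vasculature, against 689, and 328 mesophyll rhythm differences between day lengths, against 504 (300 without a filter). Single days gave 0 to 28 rhythm calls per group, against 689 to 7584, 279 to 801 interaction calls, against 2790 to 5851, 0 to 38 rhythm differences, against 504 to 1559, and, with 1 exception, 78 to 194 day length calls, against 266 to 407. The 6 times as a factor gave 1060 to 5555 long-day rhythms, against 689 to 2899, and 2095 to 4750 rhythm differences, against 504 to 1446 between day lengths and 1339 to 1559 between tissues. With the replicate block, rhythm differences between day lengths were 989 in mesophyll, against 504, and 2235 in whole leaf, against 1446, and time course differences from whole leaf were 609 and 290 in long-day and short-day mesophyll, against 1039 and 554. With the cosine time course differences numbered 188 to 2907 over the 4 groups, against 554 to 4950. The cause of these shifts was not tested. The low GTR2 values in mesophyll limit how precisely its fold differences there can be given.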
